A study of Mus musculus with 21 samples.

Results

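The genes described here make cholesterol or control its making: Srebf2, Insig1, Hmgcs1, Idi1, Fdps, Sqle, Lss, Cyp51 and Hsd17b7. They were named by symbol, and each was read through the brightest array probe that the platform annotation ties to that symbol alone. By this rule 8 of the 9 genes were measured, out of 16248 genes on the arrays. The probe for Idi1, the isomerase of the mevalonate pathway, is also tied to the symbol Gm13502, so Idi1 was left out. Each of the 8 had 1 probe, and none was lost to a filter on low values, because none was applied.

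The tissue was epididymal fat, a visceral depot that lies along the epididymis, from male C57BL/6J mice. It was measured on 21 GeneChip arrays, 3 in each of 7 diet groups, and RNA of the whole pad was used, so fewer cells of a type and less RNA per cell cannot be told apart. All groups but ND ate a high-fat diet, with 40% of calories as fat. BC mice received it with 0.3% (w/w) of the bacterium Bacillus coagulans, SMG mice with 0.3% steamed grain, L_FMG mice with 0.3% fermented mixed grain and H_FMG mice with 0.9% fermented mixed grain. RMG mice are labelled with the high-fat diet, and the protocols used here do not describe what else they were fed. HFD mice had that diet alone, and in ND mice fat made up 10% of calories. All mice arrived at 4 weeks of age, had 1 week of acclimation and then 12 weeks on the diet. Arrays are called by group and by the number in their title. Nothing beyond separate titles says that they came from separate animals, so p-values measure the spread between these arrays, and 3 arrays a group limit the precision.

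Cells build cholesterol from acetyl-CoA through mevalonate, isoprenoid units, squalene and lanosterol. The transcription factor SREBP-2, product of Srebf2, is held in the endoplasmic reticulum by Insig proteins when sterols are plentiful. When sterols fall it is released to the nucleus, where it raises transcription of nearly every enzyme of the pathway and of Insig1 and Srebf2 themselves. Adipocytes hold much of the body's free cholesterol but synthesise little of it. Macrophages of obese fat take up lipid from dying adipocytes.

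Values are log2 levels, so a difference of 1 is a doubling. A level of 1 probe says nothing of its level against another gene's probe. Array medians ran from 4.23 to 4.39. Adipocyte markers were high, with Fabp4 at 12.18 and Adipoq at 9.32 on average, the second above 98.6% of genes, and the 7 measured epididymis and testis markers had array means between 3.83 and 4.47. ND array 9 stood apart from the other ND arrays: its 12 macrophage markers averaged 8.25, against 7.69 and 7.58 in ND arrays 6 and 8, and its 8 adipocyte markers 9.26, against 9.76 in both others. HFD array 6 was the highest HFD array for 8 of the 8 genes, and L_FMG array 10 was the lowest L_FMG array for all but Srebf2. Many values below are also given without these arrays.

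Srebf2 encodes the master regulator. Its level was 7.26, 7.47 and 7.12 in HFD arrays 4, 6 and 7, against 6.77, 6.59 and 6.58 in ND arrays 6, 8 and 9. The HFD arrays all lay above the ND arrays, with a gap of 0.35 between the groups. Srebf2 rose in HFD by 0.64 ± 0.13 (log2 change ± SE, n = 3 against 3), a fold of 1.56, with an adjusted p of 0.0052 (limma, Benjamini-Hochberg over 16248 genes). Among the supplemented groups it read 6.84, 7.12 and 7.08 in BC, 7.51, 7.37 and 7.62 in RMG, 7.55, 7.37 and 7.08 in SMG, 7.30, 6.91 and 6.96 in L_FMG, and 6.96, 6.91 and 6.86 in H_FMG. RMG was highest and H_FMG the lowest of the high-fat groups, yet every H_FMG array was above every ND array. The group means ran from 7.50 in RMG through 7.33 in SMG, 7.29 in HFD, 7.06 in L_FMG, 7.01 in BC and 6.91 in H_FMG to 6.65 in ND, and H_FMG and ND were the 1 pair of neighbours in this order whose arrays did not overlap.

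The promoters of Srebf2, of Hsd17b7 and of Hmgcs1 are shown because the first 2 genes had the smallest adjusted p in HFD against ND and Hmgcs1 alone had a change below 0. They are RefSeq sequences of build GRCm38.p6, 250 bases before to 50 after the start, 5′ to 3′ on the gene's strand. Capitals mark TCACNCCA, a relaxed spelling of the sterol regulatory element that SREBP binds, CCAAT, the box read by its partner NF-Y, and CACGTG, an E-box, each on either strand (CCAAT on the other strand reads ATTGG). Srebf2 lies at chr15:82147019-82147318 on the plus strand, Hsd17b7 at chr1:169969156-169969455 on the minus strand and Hmgcs1 at chr13:119690101-119690400 on the plus strand.
Srebf2: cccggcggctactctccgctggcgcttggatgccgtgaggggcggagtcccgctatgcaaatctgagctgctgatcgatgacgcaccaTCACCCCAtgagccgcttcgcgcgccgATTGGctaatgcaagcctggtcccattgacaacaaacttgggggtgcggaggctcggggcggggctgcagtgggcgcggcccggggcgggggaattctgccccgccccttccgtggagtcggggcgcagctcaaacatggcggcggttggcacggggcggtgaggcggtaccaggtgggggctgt
Hsd17b7: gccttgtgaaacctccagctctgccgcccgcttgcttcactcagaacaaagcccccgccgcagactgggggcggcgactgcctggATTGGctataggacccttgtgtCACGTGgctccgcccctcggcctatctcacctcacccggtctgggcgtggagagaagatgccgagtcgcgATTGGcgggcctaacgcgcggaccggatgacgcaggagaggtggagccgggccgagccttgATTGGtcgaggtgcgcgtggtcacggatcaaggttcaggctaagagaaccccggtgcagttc
Hmgcs1: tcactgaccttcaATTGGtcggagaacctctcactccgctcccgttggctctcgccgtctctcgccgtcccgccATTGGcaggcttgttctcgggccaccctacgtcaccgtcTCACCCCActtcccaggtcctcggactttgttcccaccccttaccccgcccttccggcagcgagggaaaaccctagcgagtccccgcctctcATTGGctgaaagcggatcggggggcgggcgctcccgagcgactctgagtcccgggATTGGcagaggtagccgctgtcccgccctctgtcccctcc

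Promoters were found for 7 of the 9 genes, Srebf2, Insig1, Hmgcs1, Idi1, Lss, Cyp51 and Hsd17b7. TCACNCCA was present in Srebf2, with its first base at -162 from the start, and in Hmgcs1, at -137, where it overlaps a match at -136 to CACCCCAC, the core of the classical element. Of 32851 mouse promoters of this length, 4.36% held TCACNCCA and 2.87% held CACCCCAC. CCAAT was present in all 7, against 37.4% of all promoters, once in Srebf2 at -135, at 3 places in Hsd17b7 and at 4 in Hmgcs1. The GC box GGGCGG, not capitalised above, was also present in all 7, against 35.7%. The E-box was found in Insig1 and Hsd17b7, against 7.15% of all promoters. Of 3 other spellings of the element searched, CACNCCAC was in Insig1 and Hmgcs1 (6.24% of all promoters), TCACNCC in Srebf2 and Hmgcs1 (15.6%) and TCGTGNGA in none of the 7 (0.974%). A match is a run of letters and was not tested as a binding site.

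Insig1 encodes the protein that retains the SREBP complex in the endoplasmic reticulum and is itself a target of SREBP. It read 9.74, 10.16 and 9.91 in HFD arrays, against 9.57, 9.65 and 9.44 in ND arrays. The arrays did not overlap, by a gap of 0.10, but the change of 0.38 ± 0.20 did not pass (adjusted p = 0.238). The supplemented groups stood at 10.25 ± 0.11 in BC, 9.99 ± 0.21 in RMG, 10.09 ± 0.13 in SMG, 9.57 ± 0.50 in L_FMG and 9.62 ± 0.40 in H_FMG (mean ± SD, n = 3 each). BC was the highest of the 7 groups, and L_FMG spread most, with 10.06, 9.60 and 9.06.

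Hmgcs1 encodes the cytosolic synthase that acts early in the mevalonate pathway. It read 9.0, 9.04 and 8.90 in HFD arrays, against 9.60, 9.48 and 8.55 in ND arrays, so 2 ND arrays were above and ND array 9 below every HFD array. Its change was -0.23 ± 0.20 (adjusted p = 0.479). This value moved with the ND array left out: the change was -0.04 (adjusted p = 0.924) without ND array 6, -0.10 (0.811) without ND array 8 and -0.56 (0.0225) without ND array 9. It also moved with the processing when no array was left out. The change was -0.48 with array weights (adjusted p = 0.0172, limma), which passed, and -0.35 after quantile normalization (0.223). Across all groups the H_FMG mean of Hmgcs1 was the highest, 9.36 ± 0.10, and the HFD mean the lowest, 8.98 ± 0.07 (SD, n = 3 each), and no neighbours in the order differed without overlap. The supplemented groups stood at 9.19 ± 0.17 in BC, 9.02 ± 0.16 in RMG, 9.27 ± 0.12 in SMG, 9.05 ± 0.35 in L_FMG and 9.36 ± 0.10 in H_FMG (mean ± SD, n = 3 each).

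Fdps encodes the synthase of farnesyl diphosphate, the branch point that leads to squalene. It read 6.02, 6.50 and 6.26 in HFD arrays, against 5.77, 5.87 and 6.00 in ND arrays. The groups were apart by 0.03 only, and the change of 0.38 ± 0.17 did not pass (adjusted p = 0.161). Fdps levels were 6.09 ± 0.22 in BC, 6.40 ± 0.10 in RMG, 6.21 ± 0.31 in SMG, 5.75 ± 0.20 in L_FMG and 5.87 ± 0.31 in H_FMG (mean ± SD, n = 3 each). RMG was the highest and L_FMG the lowest of the 7 groups.

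Sqle encodes squalene epoxidase, the first oxygen-dependent step of sterol synthesis. It read 5.20, 5.87 and 5.45 in HFD arrays, against 4.99, 4.68 and 4.91 in ND arrays. Every HFD array was above every ND array, and Sqle rose by 0.64 ± 0.19 (adjusted p = 0.0386). The call was lost without HFD array 6 (change 0.46, adjusted p = 0.209), HFD array 7 (0.0814), ND array 8 (0.116) or ND array 9 (0.0591), and with the HFD and ND arrays fitted alone (0.0802). In the other groups Sqle stood at 5.48, 5.48 and 5.73 in BC, 5.74, 5.62 and 5.65 in RMG, 5.84, 5.30 and 5.01 in SMG, 5.33, 4.88 and 4.80 in L_FMG, and 5.04, 4.80 and 4.66 in H_FMG. BC and RMG arrays were therefore all above the ND arrays, while H_FMG arrays covered the same range as ND arrays.

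Lss, the lanosterol synthase that closes the sterol rings, read 5.82, 6.23 and 6.11 in HFD arrays, against 5.70, 5.52 and 4.94 in ND arrays. Cyp51, the demethylase that acts on lanosterol, read 5.69, 6.64 and 5.91 in HFD arrays, against 5.47, 5.46 and 5.24 in ND arrays. Both were higher on every HFD array than on any ND array, and neither passed, with changes of 0.66 ± 0.23 (adjusted p = 0.074) for Lss and 0.69 ± 0.22 (adjusted p = 0.0553) for Cyp51. Without HFD array 6 the change of Cyp51 was 0.41 (adjusted p = 0.298). Cyp51 passed without HFD array 4 (change 0.89, adjusted p = 0.0322), and Lss without ND array 6 (change 0.82, adjusted p = 0.0463). The change of Lss was 0.44 (adjusted p = 0.278) without ND array 9 and 0.58 (0.237) without HFD array 6. Lss levels were 5.98 ± 0.14 in BC, 6.06 ± 0.17 in RMG, 5.95 ± 0.30 in SMG, 5.31 ± 0.48 in L_FMG and 5.54 ± 0.38 in H_FMG (mean ± SD, n = 3 each). Those of Cyp51 were 5.97 ± 0.13 in BC, 6.20 ± 0.22 in RMG, 5.95 ± 0.28 in SMG, 5.42 ± 0.42 in L_FMG and 5.45 ± 0.28 in H_FMG (mean ± SD, n = 3 each). In both genes the means of BC, RMG, SMG and HFD were above those of L_FMG, H_FMG and ND.

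Hsd17b7 encodes the 3-ketosteroid reductase that works during removal of the C4 methyl groups. It read 5.04, 5.30 and 5.21 in HFD arrays, against 4.47, 4.59 and 3.84 in ND arrays. This was the largest change among the 8 genes, a rise of 0.88 ± 0.20 or 1.84-fold (adjusted p = 0.0104), and the groups were 0.44 apart. The probe was not bright: the ND mean of 4.30 lay within the range of array medians, 4.23 to 4.39. Over all arrays the mean of Hsd17b7 was above that of 53.3% of genes. For Sqle this share was 58.5% and for Srebf2 86.7%. ND array 9 was far below the other ND arrays. Without it the rise was 0.65 (adjusted p = 0.0487), and without HFD array 6 the change of 0.82 no longer passed (adjusted p = 0.062). Hsd17b7 levels were 5.10 ± 0.10 in BC, 5.40 ± 0.04 in RMG, 5.07 ± 0.30 in SMG, 4.67 ± 0.42 in L_FMG and 4.81 ± 0.28 in H_FMG (mean ± SD, n = 3 each). In RMG the 3 arrays read 5.41, 5.36 and 5.43, all above the HFD arrays, and RMG and HFD were the 1 pair of neighbours in the order of Hsd17b7 without overlap. Over the 8 genes together 2 of 48 pairs of neighbouring groups did not overlap. The same count was not made over all genes, so whether this is few or many is not known.

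**Figure D1:**
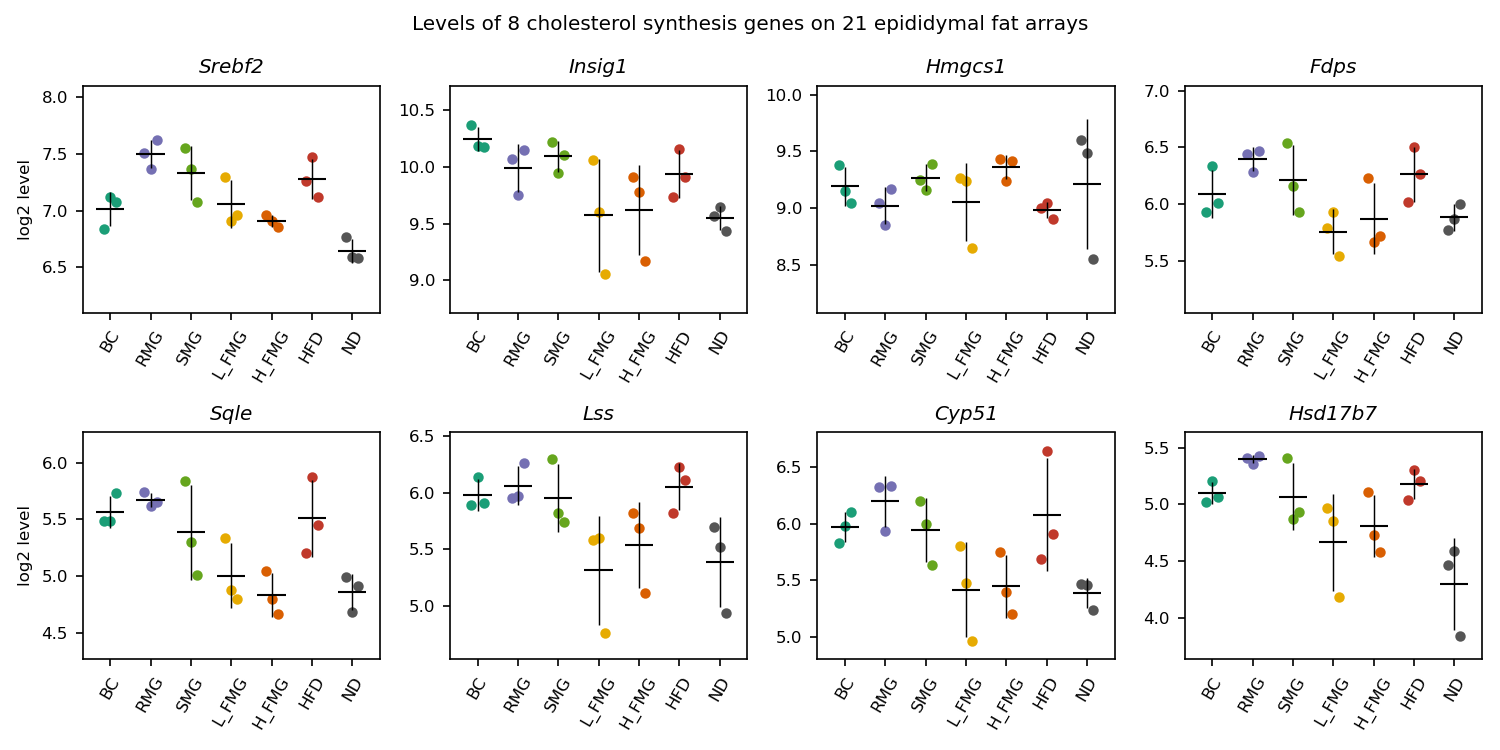
Log2 levels of the 8 measured genes on all 21 arrays, 1 panel per gene, all panels spanning 2 log2 units; points are arrays, lines the group means and bars 1 SD. RMG has the highest mean for 6 of the 8 genes and ND the lowest for 4, while Hmgcs1 is highest in H_FMG at a mean of 9.36.

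Most of the sterol genes had higher values in HFD than in ND fat. In HFD against ND 3 of the 8 genes rose, Srebf2, Sqle and Hsd17b7, where 6.54% of all genes rose, and 0 fell. In 7 of the 8, all but Hmgcs1, every HFD array lay above every ND array, which held for 15.7% of all genes. The median change was 0.64, against -0.04 over all genes tested. Without HFD array 6 the count was 1, Srebf2, at an adjusted p of 0.0466. Without ND array 9 it was 3, with Hmgcs1, lower, in place of Sqle. It was 4 without ND array 6, which added Lss, and 4 without HFD array 4, which added Cyp51.

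The supplemented groups share the ND and HFD arrays of the comparisons above, so their values are set side by side and are not separate evidence. RMG against ND had 5 genes higher, Srebf2 by 0.85 ± 0.13 (adjusted p = 0.000341), Hsd17b7 by 1.10 ± 0.20 (0.00105), Sqle by 0.81 ± 0.19 (0.00625), Cyp51 by 0.81 ± 0.22 (0.0167) and Fdps by 0.52 ± 0.17 (0.0422), where 10.2% of all genes rose. The RMG arrays were all above the ND arrays in 7 genes, against 17.1% of all genes. The count was 3 without RMG array 4 and without RMG array 10, and Cyp51 and Fdps were the genes that lost the call there (adjusted p = 0.0684 and 0.115 without array 4, 0.0689 and 0.128 without array 10). Without ND array 9 Cyp51 lost the call (adjusted p = 0.053) and Hmgcs1 fell by 0.52 (adjusted p = 0.0206). Fdps kept its call in 6 of 14 alternatives, and was lost without ND array 6 (0.109), ND array 8 (0.0897) or RMG array 9 (0.0567) as well. SMG against ND had 2 genes higher, Srebf2 by 0.69 ± 0.13 (adjusted p = 0.00825) and Hsd17b7 by 0.77 ± 0.20 (0.0304), where 4.74% of all genes rose, and its arrays were all above the ND arrays in 6 genes, against 11.2%. Without SMG array 5 or SMG array 8 that count was 0, without ND array 9 it was 1, Srebf2, and without SMG array 12 it was 3, with Sqle at 0.71 (adjusted p = 0.0256). Sqle had 0.52 with all arrays and 0.29 without SMG array 5, Fdps 0.33 and 0.17 without it, and Lss 0.56 and, without ND array 9, 0.34. BC against ND had 0 of 8 past the threshold in the limma fit, where 0.0923% of all genes rose, with 6 at an unadjusted p under 0.05 (15.1% of all genes) and 3 with array weights (3.87% of all genes called), and 6 genes with every BC array above every ND array, against 9.15%. The largest BC changes were 0.80 ± 0.20 for Hsd17b7 (adjusted p = 0.084), 0.70 ± 0.19 for Sqle (0.0967) and 0.69 ± 0.20 for Insig1 (0.116).

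Most sterol genes had lower values with fermented grain than with the high-fat diet alone, and none passed the test. In H_FMG against HFD 7 of the 8 changes were negative, all but that of Hmgcs1, with a median of -0.38, against 0.02 over all genes. Sqle had a change of -0.67 ± 0.19 (adjusted p = 0.144, 95% interval -1.06 to -0.27), Srebf2 of -0.38 ± 0.13 (0.185) and Cyp51 of -0.63 ± 0.22 (0.198). Every H_FMG array was below every HFD array for Srebf2 and Sqle, 2 of the 8 genes, against 11.4% of all genes. Every H_FMG array was above for Hmgcs1, 1 of the 8, against 10.7% of all genes. Hmgcs1 had a change of 0.38 ± 0.20 (adjusted p = 0.391). By limma 0 of the 8 genes passed, where 0.00615% of all genes did, 5 had an unadjusted p under 0.05 (14.5% of all genes), and with array weights, where 3.48% of all genes were called, 1 passed, Sqle (adjusted p = 0.0438). Without HFD array 6 the change of Cyp51 was -0.35, that of Sqle -0.49 and that of Srebf2 -0.28. Without H_FMG array 8 that of Lss was -0.30, against -0.51 with it, and that of Insig1 -0.09, against -0.31. Markers of other cells moved in the same comparison, and their part was not tested: 12 of 12 macrophage markers were lower (median -0.91), 8 of 8 fibroblast and progenitor markers were lower (median -0.51), 7 of 7 endothelial markers were higher (median 0.34), and none of these passed. Cell cycle genes were lower in 7 of 7 (median -0.68) and adipocyte markers higher in 7 of 8 (median 0.32), and again none passed. The 1 gene of 16248 called was Acr, which encodes a sperm protease and is on the list of epididymis and testis markers, at 0.66 ± 0.10 (adjusted p = 0.0342).

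L_FMG against HFD, which shares the HFD arrays, had 7 of 8 changes negative, a median of -0.50 (0.00 over all genes) and 0 of 8 past the threshold, as for 0% of all genes. At an unadjusted p under 0.05 there were 5 (8.66% of all genes). Lss had the largest change, -0.74 ± 0.23 (adjusted p = 0.454), followed by Cyp51 at -0.67 ± 0.22 (0.474) and Fdps at -0.51 ± 0.17 (0.474). The L_FMG arrays were all below the HFD arrays for Lss, Fdps and Hsd17b7, 3 of the 8 genes, against 10.1% of all genes. L_FMG array 10 moved these values by over 1.5 times: without it the changes were -0.46 for Lss, -0.44 for Cyp51, -0.27 for Hsd17b7 and -0.11 for Insig1, which was -0.37 with it. Without L_FMG array 4 they were -0.61 for Insig1 and -0.35 for Srebf2. Without HFD array 6 they were -0.38 for Cyp51, -0.32 for Sqle and -0.14 for Srebf2, against -0.67, -0.50 and -0.23 with it.

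The doses of fermented grain did not differ past the threshold. H_FMG against L_FMG had changes between -0.17 (Sqle) and 0.31 (Hmgcs1), with 0 of 8 at an unadjusted p under 0.05 (3.91% of all genes) and 0% of all genes called, and the 95% interval for Sqle ran from -0.57 to 0.23. In a trend linear in dose over HFD, L_FMG and H_FMG, scaled to 0.9%, Sqle had -0.61 ± 0.19 (adjusted p = 0.212) and Srebf2 -0.36 ± 0.13 (0.249), with 0 of 8 passing, 3 at an unadjusted p under 0.05 (13.0% of all genes) and 0% of all genes called. At equal dose L_FMG against SMG had all 8 changes negative, from -0.64 for Lss to -0.22 for Hmgcs1, and L_FMG against BC had 7 negative, with Insig1 and Lss at -0.67 each. None passed in either (0% of all genes called). In each, 5 of 8 had an unadjusted p under 0.05, against 5.45% of all genes for SMG and 4.10% for BC. Without L_FMG array 10 these counts were 0 against SMG and 2 against BC, and the change of Lss was -0.36 against SMG and -0.39 against BC, that of Insig1 -0.26 and -0.42.

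No sterol gene differed past the threshold between BC, RMG or SMG and HFD. Changes lay between -0.28 and 0.31 in BC, 0.01 and 0.22 in RMG, and -0.13 and 0.29 in SMG, with 0 of 8 called in each by limma, 1, 0 and 0 at an unadjusted p under 0.05 (5.18%, 2.82% and 1.85% of all genes), and 0% of all genes called. The 1 in BC was Srebf2, at -0.28 ± 0.13 (adjusted p = 0.917). Against ND, L_FMG and H_FMG had 0 of 8 called, where 0.00615% of all genes were in each, and median changes of 0.02 and 0.11. Each had 1 gene at an unadjusted p under 0.05 (12.9% and 8.36% of all genes). Srebf2, 1 of the 8 genes, was above ND on every array of both. This held for 6.73% of all genes in L_FMG and 4.79% in H_FMG. The intervals are wide: that of Cyp51 in RMG against HFD ran from -0.34 to 0.58. In an F test over the 6 high-fat groups 0 of 8 genes passed, as 0.0492% of all genes did, 7 had an unadjusted p under 0.05 (12.2% of all genes), and 4 passed with array weights (8.84% of all genes). Sqle and Srebf2 came nearest, with adjusted p of 0.0979 and 0.0981, and both passed without SMG array 12.

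**Figure D2:**
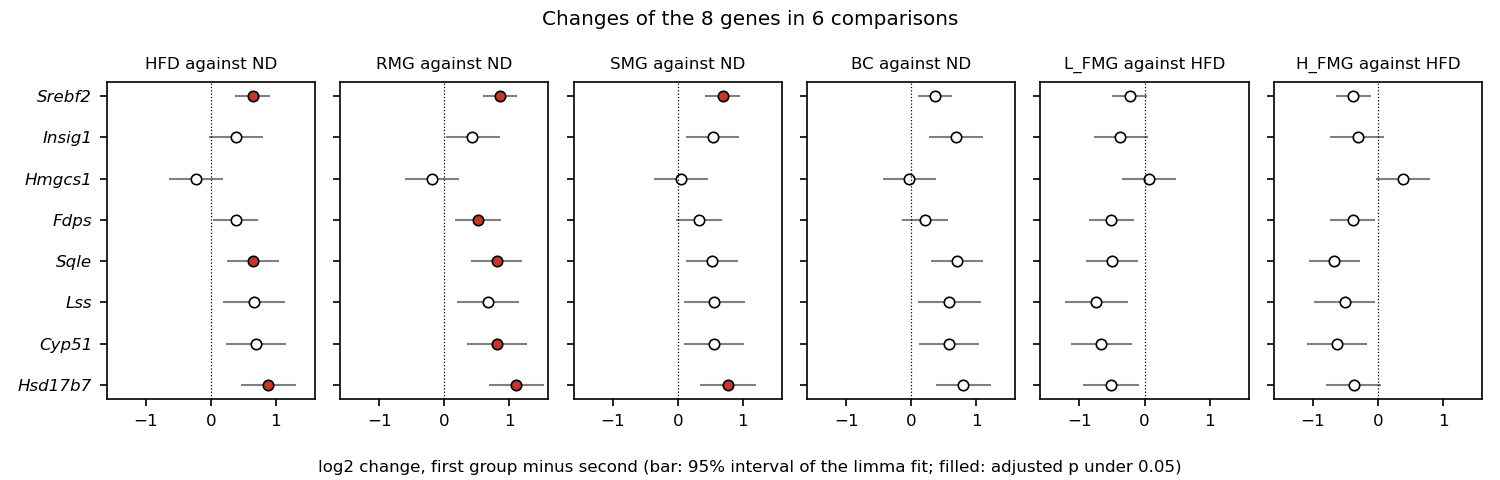
Log2 change of each gene, first-named group minus second, in 6 comparisons; points are the fitted change, bars its 95% interval, and filled points passed at an adjusted p under 0.05. The changes against ND lie right of 0 for 7 of 8 genes in HFD and RMG, and those of L_FMG and H_FMG against HFD lie left of 0 for 7 of 8.

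Over all 21 arrays, group differences included, the genes varied together, Hmgcs1 apart. The 21 pairs of the other 7 genes had Pearson correlations between 0.53 and 0.92 over the 21 arrays, with a median of 0.79, while the 7 pairs with Hmgcs1 lay between -0.20 and 0.24. Set against the mean of the other 7, Cyp51 had the highest correlation, 0.95, followed by Lss at 0.93 and Hsd17b7 at 0.91, and Hmgcs1 had 0.04. These values describe arrays that fall into diet groups and share their scaling. With group means removed the 21 pairs lay between 0.46 and 0.92. On that basis the 7 pairs with Hmgcs1 lay between 0.02 and 0.70, so the ranges overlapped. The value of 0.04 for Hmgcs1 rested on ND array 9 and L_FMG array 10: without both it was -0.62 over 19 arrays. Of other genes, predicted models left out, the 8 closest to the mean of the 8 sterol genes were Cdk1, the mitotic kinase, at 0.96, then Ndc1, Smc4, a condensin subunit, Hadha, of mitochondrial fatty acid oxidation, and Alg14, each at 0.95, and Naa15, Gyg and Idh1, each at 0.94.

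Other genes of the sterol pathway were listed too. Of 15 other synthesis genes listed, 6 had a usable probe, Mvk, Pmvk, Idi2, Fdft1, Tm7sf2 and Lbr. In HFD against ND 0 of 6 passed by limma, where 1403 of 16248 genes did. At an unadjusted p under 0.05 there were 2, against 25.3% of all genes, and the median change was -0.05. Fdft1, squalene synthase, had 0.31 ± 0.12 (adjusted p = 0.114), Pmvk, phosphomevalonate kinase, -0.26 ± 0.11 (0.148) and Lbr, a sterol reductase of the inner nuclear membrane, -0.46 ± 0.22 (0.20). Of 5 measured genes that control SREBP or answer to it, 0 passed in HFD. At an unadjusted p under 0.05 there were 2 (25.3% of all genes). Erlin1, a protein of the endoplasmic reticulum membrane, had 0.45 ± 0.16 (adjusted p = 0.0847) and Srebf1, which drives fatty acid synthesis, -0.31 ± 0.13 (0.152). In RMG against ND Stard4, a sterol carrier, rose by 0.52 ± 0.14 (adjusted p = 0.0176) and Srebf1 fell by 0.48 ± 0.13 (0.0195).

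In HFD against ND, where 1063 of 16248 genes rose and 340 fell, 4 of 6 measured genes of cholesterol storage and lysosomal release rose. Nceh1, a cholesteryl ester hydrolase, rose by 1.59 ± 0.34 (adjusted p = 0.00718) and Lipa, the lysosomal acid lipase, by 1.23 ± 0.23 (0.00395). Npc1, which exports cholesterol from lysosomes, rose by 0.91 ± 0.15 (adjusted p = 0.00309) and Stard3, a late endosomal sterol carrier, by 0.73 ± 0.16 (0.00718). Of 8 efflux and oxysterol genes 2 rose, Abcg1, a cholesterol exporter, by 0.77 ± 0.16 (adjusted p = 0.00673) and Pltp, the phospholipid transfer protein, by 0.79 ± 0.16 (0.00494), while Abca1 had -0.03 ± 0.08 (0.873). Of 8 fatty acid synthesis genes 0 rose and 2 fell, Fasn, fatty acid synthase, by 0.57 ± 0.13 (adjusted p = 0.0105) and Acaca, acetyl-CoA carboxylase, by 0.83 ± 0.21 (0.0162). In H_FMG against HFD 0 members of these lists passed. An unadjusted p under 0.05 was seen in 4 of 6 storage, 2 of 8 efflux and 1 of 8 fatty acid genes (14.5% of all genes).

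**Figure D3:**
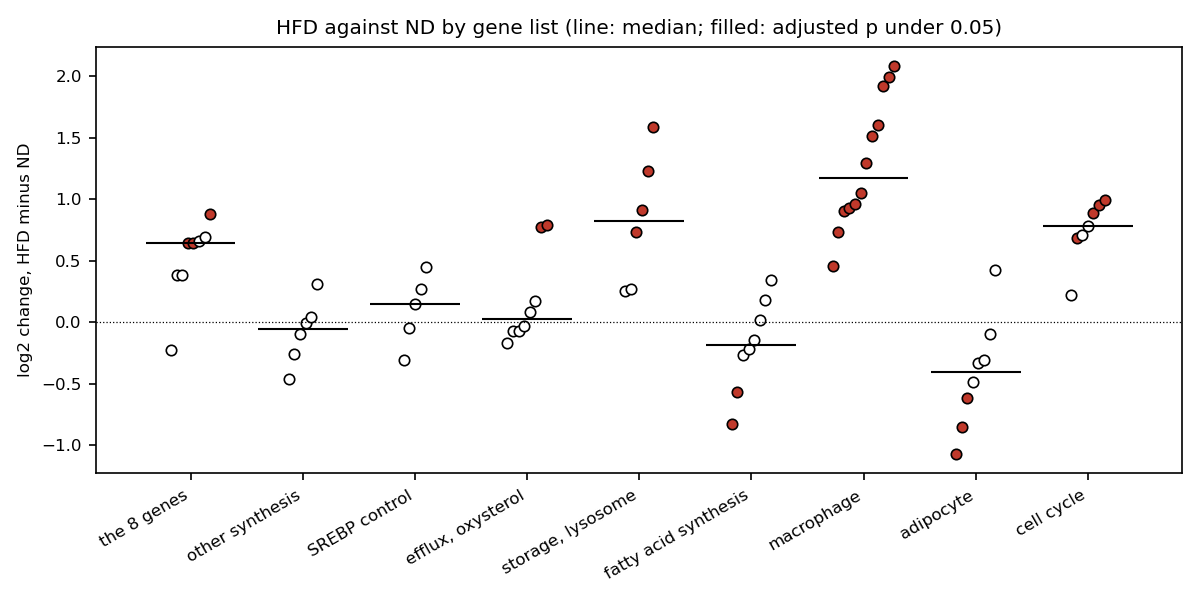
Log2 change in HFD minus ND for each measured gene, by list; points are genes, filled where the adjusted p was under 0.05, and lines are list medians. The 8 sterol genes have a median of 0.64, the 6 storage genes of 0.82, the 12 macrophage markers of 1.17 and the 8 fatty acid synthesis genes of -0.18.

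Markers of some other cells also differed between HFD and ND, in both directions. In HFD against ND 1063 of 16248 genes rose and 340 fell. All 12 measured macrophage markers rose, and their mean level per array ran from 9.03 to 9.29 in HFD and from 7.58 to 8.25 in ND. It ran from 8.38 to 9.0 in BC, 9.28 to 9.46 in RMG, 8.38 to 9.37 in SMG, 8.24 to 8.77 in L_FMG and 7.72 to 8.70 in H_FMG. None of the 12 was near the bottom of the scale, the lowest being Cd14 at 6.66 on average. Of 7 cell cycle genes 4 rose in HFD, and their mean level per array ran from 4.83 to 5.36 in HFD and from 4.24 to 4.50 in ND, with 5.11 to 5.75 in RMG and 4.16 to 4.86 in H_FMG. Of 8 adipocyte markers 3 fell, with array means from 8.98 to 9.29 in HFD and from 9.26 to 9.76 in ND. Of 8 fibroblast and progenitor markers 4 rose, and array means ran from 8.77 to 8.86 in HFD and from 7.87 to 8.26 in ND. Of 7 endothelial markers 1 fell and 0 rose. Of 7 epididymis and testis markers 0 passed by limma in HFD against ND. Among the latter 1 had an unadjusted p under 0.05, against 25.3% of all genes. The part of these cells in the levels of the sterol genes was not tested.

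**Figure D4:**
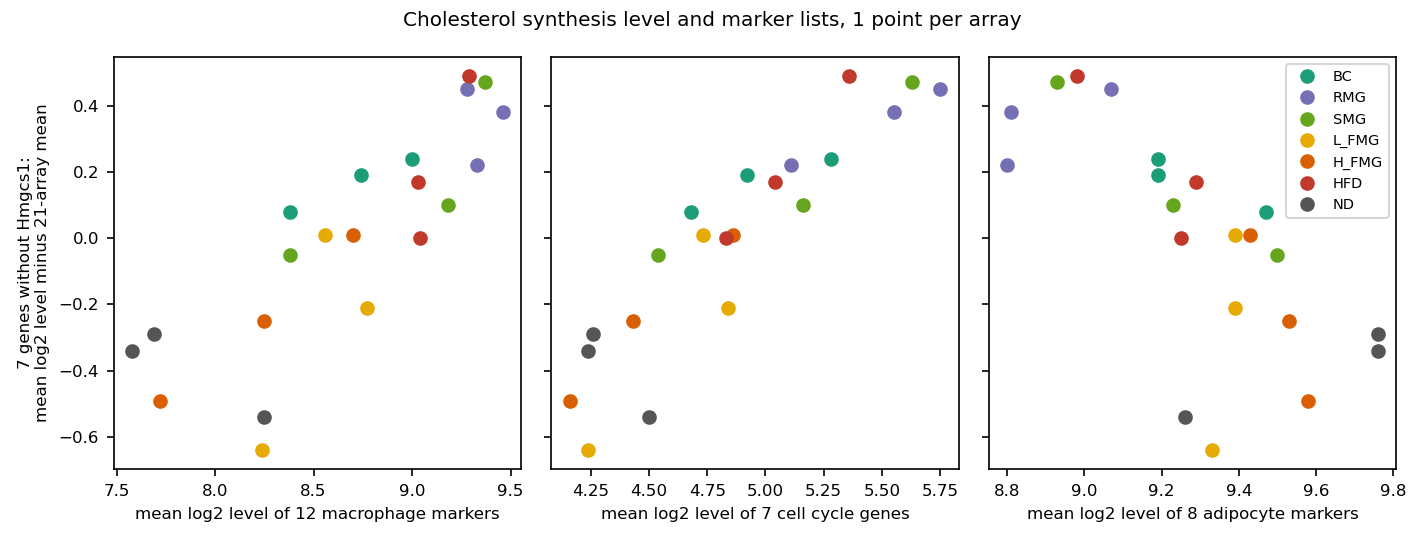
Mean log2 level of the 7 sterol genes without Hmgcs1, each minus its own 21-array mean, against the mean log2 level of macrophage markers, cell cycle genes and adipocyte markers, 1 point per array coloured by group. HFD array 6 is highest in sterol genes at 0.49 and L_FMG array 10 lowest at -0.64, and ND array 9, at -0.54, has a higher macrophage level (8.25) than the other ND arrays.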

How the data were processed

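Log2 levels of 21 arrays were deposited by the authors in 1 table; the log base was inferred from the range of 0.84 to 12.7. Per the labels' protocols, Trizol RNA was labelled with a GeneChip whole-transcript kit; how probe values were summarised and normalized is not given in those protocols. Of 24292 rows, 1 was incomplete and left out. The platform annotation gave 17067 probes 1 symbol, 1139 several and 6085 none; symbols were updated by Entrez number, and the brightest single-symbol probe stood for each of 16248 genes. Listed genes without a single-symbol probe in the table were not analysed here.

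Each gene was fitted with limma 3.58.1 (R 4.3.3), 1 coefficient per group over all 21 arrays, with an intensity trend. P-values were two-sided, adjusted by Benjamini-Hochberg over all genes within a comparison, threshold 0.05. The fit was tested on simulated data. Alternatives covered scaling, genes tested, probe choice, variance prior, array weights, samples fitted, a number block and single arrays left out. Named genes were all members, list genes that passed or had the smallest p, of which a selection is given, and the 8 genes most correlated with the member mean, without predicted genes. The members, lists and motifs were chosen with earlier results of these data known. The labels name no scan date and no batch.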

Additional observations from a re-analysis of the deposited data

How the results depend on the processing

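The direction of the 8 genes was the same under every alternative run for HFD, RMG and SMG against ND and for L_FMG and H_FMG against HFD, except for Hmgcs1. Its change reversed in L_FMG against HFD without L_FMG array 4 (-0.03) or array 8 (-0.02; -0.03 to 0.27 over arrays left out), in RMG against ND with the replicate block (0.03) and without ND array 6 (0.00; range -0.52 to 0.00), and in SMG against ND after quantile normalization (-0.04), with array weights (-0.25), with the replicate block (-0.33), without ND array 9 (-0.27) and without SMG array 12 (-0.01; range -0.27 to 0.25). Counts of the 8 genes called changed as follows, and the cause was not tested. With array weights 1 was called in H_FMG against HFD, 3 in BC against ND and 4 in the F test. In HFD against ND, with 3 as reported, array weights gave 4, adding Hmgcs1, which was lower. There 4 were also called with dim genes left out, which added Cyp51. With every probe tested, or with only the HFD and ND arrays, 2 were called, Srebf2 and Hsd17b7. With only the SMG and ND arrays 0 were called, and with the replicate block 0 in HFD against ND and 0 in SMG against ND, against 3 and 2, while RMG against ND had 6. Leaving out single arrays gave 1 to 4 called in HFD against ND, 3 to 5 in RMG against ND, 0 to 3 in SMG against ND and 0 to 2 in the F test, and 0 in the other comparisons. Counts of all genes called also moved: 1403 as reported in HFD against ND, 368 without HFD array 6 and 2432 with array weights, 2401 in RMG against ND (1412 to 3618), 948 in SMG against ND (0 to 2913), 18 in BC against ND (0 to 629), 1 in H_FMG against HFD (0 to 566) and 8 in the F test (0 to 1436). No pairing by the number in the titles was seen over all genes. For 18 pairs of arrays of different groups with the same number, deviations from group means correlated between -0.302 and 0.178. Their mean was -0.049, against 0.005 for pairs with other numbers. A link confined to some genes was not tested. Srebf2 kept its call in 13 of 14 alternatives in HFD against ND, Hsd17b7 in 12 and Sqle in 7, and in RMG against ND Srebf2, Sqle and Hsd17b7 kept it in all 14.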

Other observations

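Within the diet groups the genes closest to the mean of the 8 sterol genes were mostly others than across all arrays. With group means removed, Slc30a5, a zinc transporter, Atp6v0a2, a subunit of the vacuolar proton pump, and Shmt2, the mitochondrial serine hydroxymethyltransferase, had a Pearson correlation of 0.92 over the 21 arrays, and Alg14, Rab22a, Taf9, Dab2 and Fam91a1 had 0.91. Alg14 was in both rankings, and whether the rankings differ was not tested. In HFD against ND Shmt2 rose by 0.64 ± 0.18 (adjusted p = 0.0296), Dab2 by 0.65 ± 0.19 (0.0427) and Fam91a1 by 0.63 ± 0.16 (0.0169), while Atp6v0a2 had a change of 0.04 ± 0.12 (0.885).

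The correlation of Hmgcs1 with the mean of the other 7 genes depended on 2 arrays, chosen after their values were seen. With group means removed it was 0.45 over 21 arrays, 0.45 without ND array 9, 0.26 without L_FMG array 10 and 0.06 without both. Over all arrays it was 0.04, and -0.62 without both. These were the lowest arrays of their groups for Hmgcs1, at 8.55 in ND array 9 and 8.65 in L_FMG array 10.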
